A study of Homo sapiens with 3 samples.

Results

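Transcripts of MDA-MB-231, a triple-negative human breast cancer cell line of mesenchymal type, were compared between cells transfected with the siRNA named siTMPO-AS1 #2 and cells given a control siRNA (siControl). The study held 3 arrays, all of MDA-MB-231 cells sampled 48 h after transfection: 1 for siControl, 1 for siTMPO-AS1 #1 and 1 for siTMPO-AS1 #2. Both siTMPO-AS1 siRNAs are aimed at the long non-coding RNA TMPO-AS1. The comparison described here used 2 of the 3 arrays, and the siTMPO-AS1 #1 array is given beside it. Of 33616 genes with a value on the arrays, 16808 were compared: each gene was represented by its brightest probe set, and its mean log2 signal over the 3 arrays had to reach the median of all genes, 4.42. A log2 ratio is the log2 signal with siTMPO-AS1 #2 minus that with siControl unless another array is named. Each condition had a single array of cells from a single line, the labels do not say whether the arrays came from separate cultures, and no difference has a replicate check or a p-value. Genes are called higher or lower where they differed by at least 1.5-fold, which is a rule of size. In RNA of whole cultures, a change in the share of cells that express a gene and a change in RNA per cell cannot be told apart.

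A small interfering RNA is a short duplex whose guide strand is taken up by an Argonaute protein and directs the cutting of RNA that pairs with it. TMPO-AS1 is read from the strand opposite to TMPO, the gene of thymopoietin (lamina-associated polypeptide), whose products sit in the inner nuclear membrane and the nucleoplasm and bind lamins and chromatin. MDA-MB-231 cells lack the oestrogen receptor and E-cadherin, carry vimentin filaments and are widely used to study migration and invasion.

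The windows around the starts of TMPO and TMPO-AS1 are shown first, since TMPO-AS1 is the target of the siRNA and TMPO its neighbour on the opposite strand. They run from 250 bases before to 50 bases after the first transcribed base in RefSeq (GRCh38.p14), 5′ to 3′ on the strand of each gene. The window of TMPO lies at chr12:98515323-98515622 on the plus strand and that of TMPO-AS1 at chr12:98516177-98516476 on the minus strand. No letters are marked, and their GC content was 65.0% and 73.3%.
TMPO: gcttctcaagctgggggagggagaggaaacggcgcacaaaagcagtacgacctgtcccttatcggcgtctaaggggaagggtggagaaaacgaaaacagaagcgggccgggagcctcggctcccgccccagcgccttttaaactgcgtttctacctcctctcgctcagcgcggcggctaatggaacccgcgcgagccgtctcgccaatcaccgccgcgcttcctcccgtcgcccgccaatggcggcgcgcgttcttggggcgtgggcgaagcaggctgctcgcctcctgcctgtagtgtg
TMPO-AS1: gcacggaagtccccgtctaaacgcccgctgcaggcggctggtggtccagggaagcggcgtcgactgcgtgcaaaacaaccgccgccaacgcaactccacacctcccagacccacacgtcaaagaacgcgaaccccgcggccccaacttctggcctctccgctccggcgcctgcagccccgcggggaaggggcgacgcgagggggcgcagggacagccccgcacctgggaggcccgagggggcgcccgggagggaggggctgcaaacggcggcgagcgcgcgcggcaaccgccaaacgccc
The first transcribed bases of the pair are 653 bases apart, and the transcripts overlap head to head, as TMPO-AS1 starts inside TMPO and runs past its start.

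The targeted RNA was dim on all 3 arrays. TMPO-AS1 had a log2 signal of 4.83 with siControl, 4.37 with siTMPO-AS1 #1 and 4.28 with siTMPO-AS1 #2, a log2 ratio of -0.55. The siTMPO-AS1 #2 value was the lowest of the 3, it lay under the filter of 4.42, and the difference from siControl was under 1.5-fold. TMPO had 14.28 with siControl, 13.39 with siTMPO-AS1 #1 and 13.76 with siTMPO-AS1 #2 (log2 ratio -0.52), also under 1.5-fold. Among the neighbours on chromosome 12, IKBIP (-0.90) and APAF1, the core protein of the apoptosome (-0.70), were lower. NEDD1, which brings gamma-tubulin to the centrosome, was higher (1.07), and with siTMPO-AS1 #1 it was lower (-0.97).

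Over the 16808 genes, siTMPO-AS1 #2 was at least 1.5-fold higher than siControl in 2705 (16.1%) and at least 1.5-fold below it in 1754 (10.4%). At least 2-fold, 773 were higher (4.6%) and 644 lower (3.83%), and at least 4-fold, 59 were higher and 79 lower. This balance depended on normalization: with quantile normalization repeated, 2149 were higher and 2116 lower at 1.5-fold, and 604 higher and 764 lower at 2-fold. Of 10788 protein-coding genes, 19.4% were higher and 11.3% lower at 1.5-fold, and their median log2 ratio of 0.13 stood above the 0.09 of all genes. The log2 ratios ran from -5.92 to 3.54 with an SD of 0.59. Long non-coding RNA genes, 623 in number, leaned the other way, with 11.6% higher and 14.6% lower. Fewer genes differed than with siTMPO-AS1 #1, where 2791 were higher and 3158 lower at 1.5-fold, 450 of them lower by at least 4-fold, and the SD was 0.80. The gap lay in the lower genes.

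**Figure D1:**
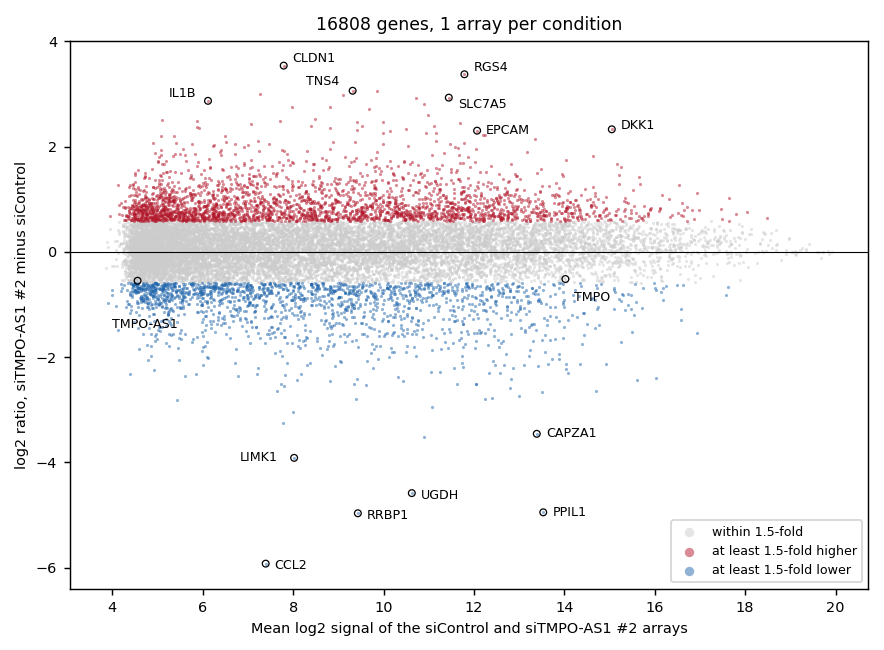
Each point is 1 of the 16808 genes compared, with the mean log2 signal of the siControl and siTMPO-AS1 #2 arrays on the horizontal axis and the log2 ratio on the vertical axis; red points are higher and blue points lower by at least 1.5-fold. The largest differences are downward, to -5.92 for CCL2, against 3.54 for CLDN1 upward, while TMPO and TMPO-AS1 lie among the genes within 1.5-fold.

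The controls on the arrays give a scale for these folds. Of 65 probe sets for external RNA controls (ERCC) at or above the filter, 2 passed 1.5-fold (3.08%), with an SD of 0.17. Positive controls, 2151 in number, passed it in 19.7% of cases. Negative controls at or above the filter passed it in 50.9% of 232 cases, against 26.5% of the genes, and their median signal was 5.16. Background probe sets, grouped by GC content, had a median log2 ratio of 0.02 over all 23. Of the 4 at or above the filter, 3 were at least 1.5-fold higher with siTMPO-AS1 #2 (1.32, 0.73 and 0.66) and 0 lower. Those 3 had the lowest GC content. Among the 4202 genes with the highest mean signal, 712 were higher and 420 lower.

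Probe sets of the same gene gave a second reading. In 646 genes, a second probe set also passed the filter, and the median difference between the ratios of the pair was 0.37. Where the brightest probe set passed 1.5-fold, in 167 genes, the second had the same sign in 117 and passed 1.5-fold with that sign in 49. At 2-fold, 42 of 57 had the same sign, 23 passed 1.5-fold with that sign and 12 passed 2-fold with it. These counts include pairs with identical ratios, such as 0.60111, -1.00551 and 0.95304, which give no separate reading. Most genes named here have only 1 probe set. Where a named gene has several, their mean can stand closer to 0 than the brightest: of 351 named genes past 1.5-fold, 7 fell under it with the mean of all probe sets, namely ATG16L1, EDEM1 (-0.28), TNRC6B (-0.35), SF3B2 (-0.43), KPNA6 (-0.47), IGF2BP2 (0.34) and SKI (0.25). The log2 ratio shrank by over 1.5 times but stayed past 1.5-fold for RRBP1 (-2.60), LIMK1 (-2.34), TJP1 (-1.06), SKP2 (-1.26), P4HA2 (-0.91), FZR1 (-0.61) and DKK1 (1.12).

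**Figure D2:**
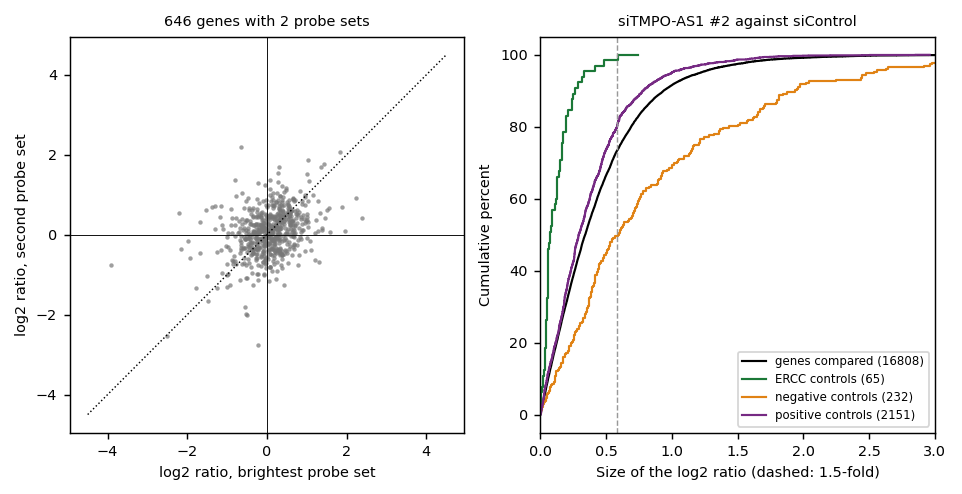
Left, the log2 ratio of the brightest probe set against that of the second for the 646 genes with 2 probe sets past the filter, with a dotted line of equality; right, the cumulative percent of genes and of array controls against the size of the log2 ratio, drawn to 3, with 1.5-fold dashed. The ERCC controls pass 1.5-fold in 3.08% of cases and the negative controls in 50.9%.

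Among the genes that stood highest with siTMPO-AS1 #2 were a tight junction protein, secreted factors and regulators of receptor signalling. CLDN1, claudin-1 of tight junctions, had a log2 signal of 6.02 with siControl, 4.12 with siTMPO-AS1 #1 and 9.56 with siTMPO-AS1 #2, which is 11.6-fold above siControl (log2 ratio 3.54). The siTMPO-AS1 #1 array lay below the control, so the arrays of the siRNAs stand on opposite sides of it. RGS4, which shortens signals of G protein-coupled receptors, had 10.10 with siControl, 9.95 with siTMPO-AS1 #1 and 13.47 with siTMPO-AS1 #2, or 10.4-fold. Here siTMPO-AS1 #1 was level with the control, and only the siTMPO-AS1 #2 array of the 3 was high. TNS4, a tensin of focal adhesions, had 7.79 with siControl, 6.22 with siTMPO-AS1 #1 and 10.85 with siTMPO-AS1 #2 (8.33-fold), and the long non-coding RNA UCA1 had 8.33 with siControl, 7.47 with siTMPO-AS1 #1 and 11.38 with siTMPO-AS1 #2 (8.33-fold). For both, siTMPO-AS1 #2 was the highest and siTMPO-AS1 #1 the lowest of the arrays. IL1B, the inflammatory cytokine interleukin-1 beta, had 4.68 with siControl, 4.26 with siTMPO-AS1 #1 and 7.55 with siTMPO-AS1 #2 (7.3-fold). HAS2, which makes hyaluronan at the cell surface, had 7.44 with siControl, 5.88 with siTMPO-AS1 #1 and 10.19 with siTMPO-AS1 #2 (6.71-fold).

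SLC7A5, the large neutral amino acid carrier LAT1, was high with both siRNAs and had 9.98 with siControl, 12.54 with siTMPO-AS1 #1 and 12.91 with siTMPO-AS1 #2 (7.61-fold for siTMPO-AS1 #2). The same order held for SLC36A1, a proton-coupled amino acid carrier of lysosomes and the cell surface (6.60, 8.01 and 9.35 in the order siControl, siTMPO-AS1 #1, siTMPO-AS1 #2), for PDCD2L (7.62, 9.06 and 10.59) and for the receptor tyrosine kinase EPHA2 (7.21, 9.06 and 9.74). In CLEC2B, a ligand of an activating NK cell receptor, siTMPO-AS1 #1 was higher still (9.25, 12.85 and 12.18), as in the intraflagellar transport gene IFT46 (8.76, 12.19 and 11.23). FST, the secreted activin antagonist follistatin, was high with siTMPO-AS1 #2 alone (8.32, 8.38 and 11.02), as were ENPP5 (5.77, 5.78 and 8.76), ANKRD46 (9.48, 9.62 and 12.29) and CCDC68 (8.18, 8.17 and 10.65). PLSCR4, a phospholipid scramblase (4.64, 4.46 and 7.11), was just above the filter on the other arrays. STYK1 (3.85, 3.87 and 6.35) was under the filter on the other arrays. It entered the comparison only through the siTMPO-AS1 #2 array where it was high. MEST, an imprinted gene, had 9.70, 6.77 and 12.29, with siTMPO-AS1 #1 far below the control. The last of the 20, DNAJC27, had 6.47, 7.42 and 8.96.

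The lowest genes went further from the control than the highest did. CCL2, the chemokine that attracts monocytes, had a log2 signal of 10.35 with siControl, 10.36 with siTMPO-AS1 #1 and 4.43 with siTMPO-AS1 #2, which is 60.7-fold below siControl (log2 ratio -5.92). Its value with siTMPO-AS1 #2 was just above the filter, while the other arrays were within 0.01 of each other. PPIL1, a cyclophilin of the spliceosome, had 16.01 with siControl, 15.98 with siTMPO-AS1 #1 and 11.06 with siTMPO-AS1 #2, or 30.9-fold lower, again with siTMPO-AS1 #1 level with the control. RRBP1, a ribosome-binding protein of the rough endoplasmic reticulum, had 11.91 with siControl, 12.11 with siTMPO-AS1 #1 and 6.95 with siTMPO-AS1 #2 (31.2-fold lower). The second probe set of RRBP1 was under the filter on all 3 arrays and had a log2 ratio of -0.24. UGDH, which makes the UDP-glucuronate used for hyaluronan and other glycosaminoglycans, had 12.92 with siControl, 13.93 with siTMPO-AS1 #1 and 8.33 with siTMPO-AS1 #2 (24-fold lower). LIMK1, the kinase that inactivates cofilin and so slows actin turnover, had 9.98 with siControl, 10.34 with siTMPO-AS1 #1 and 6.06 with siTMPO-AS1 #2 (15.1-fold lower), and its dimmer second probe set had a log2 ratio of -0.76. In all 5, only the siTMPO-AS1 #2 array was low.

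CAPZA1, a subunit of the actin filament capping protein, was low with both siRNAs (15.12, 11.37 and 11.66), and so was XAF1, an interferon-inducible pro-apoptotic protein (8.96, 5.72 and 6.33). SFXN1, the mitochondrial serine carrier, had 12.65, 10.89 and 9.13, and ITGA5, the alpha chain of the fibronectin receptor, had 10.79, 9.38 and 7.99; with siTMPO-AS1 #1 each lay between the other arrays. RBPJ, the DNA-binding factor of NOTCH signalling, had 13.79, 14.92 and 11.02, low with siTMPO-AS1 #2 and above the control with siTMPO-AS1 #1. SRPK1, a kinase of splicing factors, had 12.90, 11.56 and 10.38, the zinc transporter gene SLC30A7 14.37, 12.68 and 11.62, the mitochondrial ATP-magnesium carrier gene SLC25A24 13.63, 12.61 and 10.84 and MORC4 14.82, 13.97 and 12.17. DUSP10, a phosphatase of stress-activated MAP kinases, had 9.08, 8.57 and 6.53, and FRMD6, an upstream member of the Hippo pathway, 10.88, 10.35 and 8.34. ENOX2 (9.40, 9.16 and 6.15), TBXAS1, thromboxane synthase (9.52, 9.19 and 6.47), EMC4, of the membrane protein insertion complex (12.54, 12.45 and 9.59), and PKIA, an inhibitor of protein kinase A (6.85, 7.32 and 4.02), were low with siTMPO-AS1 #2 alone.

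**Figure D3:**
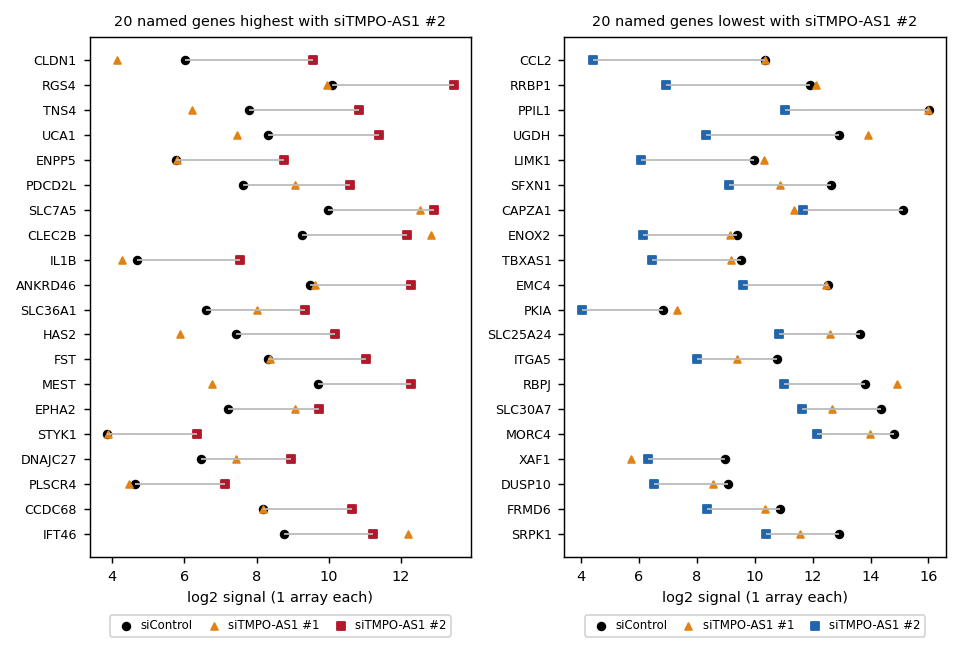
Log2 signals on the 3 arrays (1 array each) of the 20 named genes highest (left) and lowest (right) with siTMPO-AS1 #2, where a grey line joins siControl (circle) to siTMPO-AS1 #2 (square) and triangles mark siTMPO-AS1 #1. The triangle lies beside the circle for genes such as CCL2, PPIL1, RGS4 and FST, beside the square for CAPZA1 and SLC7A5, and on the other side of the circle for CLDN1, MEST and UGDH.

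The genes were then read by pathway and cell type, in 83 lists of 1942 distinct genes, of which 1515 were compared. A list is described by how many of its members were higher or lower and by its median, against 19.4% higher, 11.3% lower and a median of 0.13 for all protein-coding genes. The median exceeded the 0.09 of all genes in 41 lists and was below it in 42. With protein-coding genes alone, 36 lists exceeded the median of those genes. Amino acid transporters and epithelial junction genes had the highest medians among lists with at least 5 members compared.

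**Figure D4:**
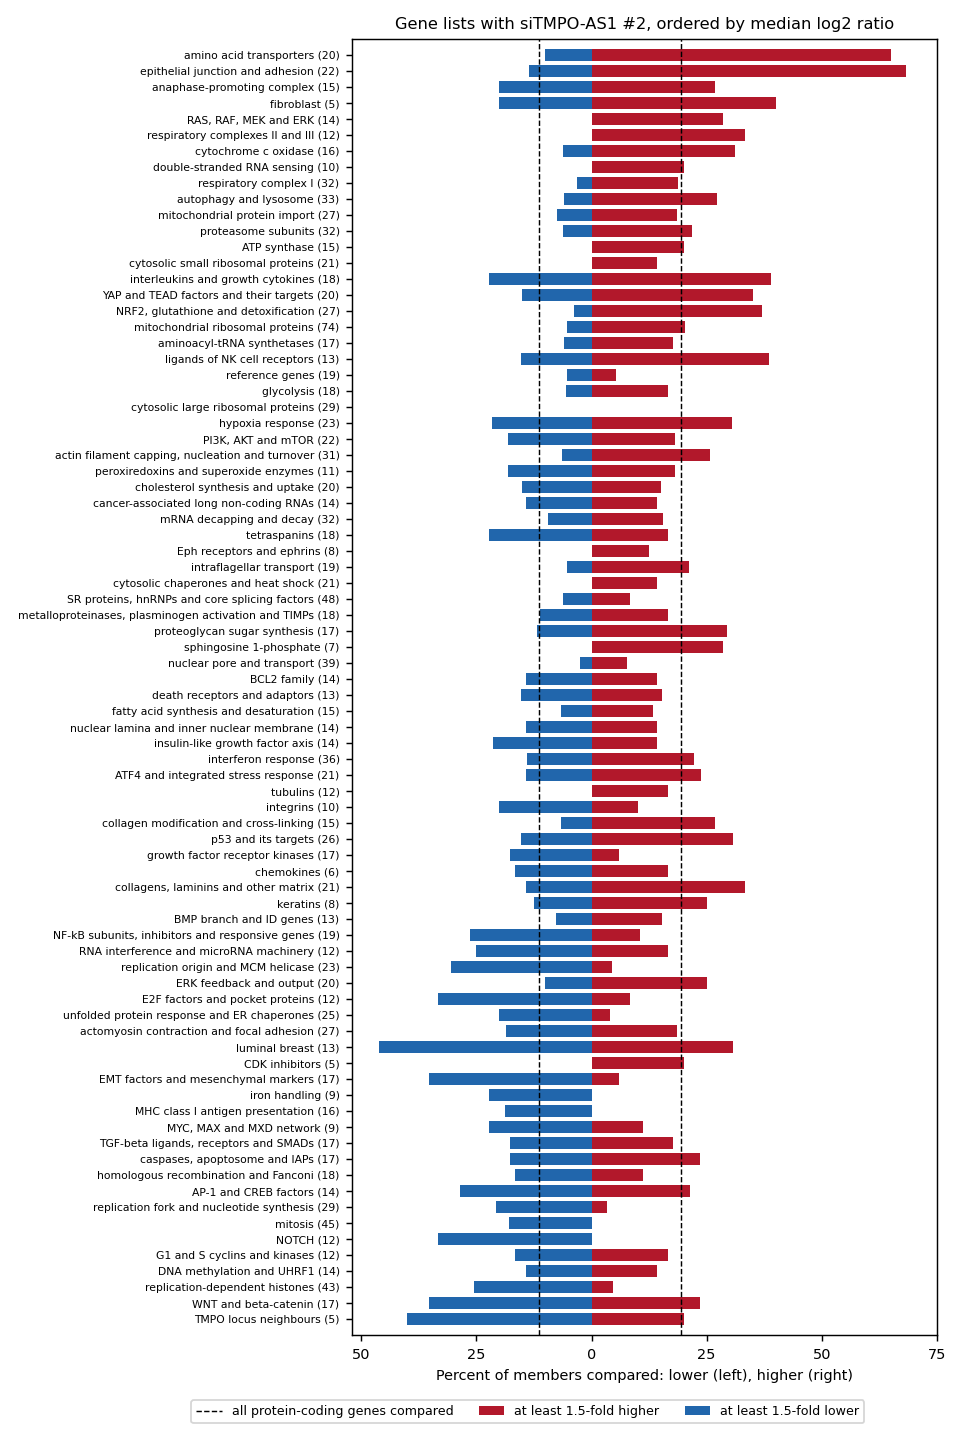
Percent of compared members past 1.5-fold with siTMPO-AS1 #2, higher in red to the right and lower in blue to the left, in each list with at least 5 members compared, ordered by median log2 ratio, with the number compared in brackets and the shares of all protein-coding genes as dashed lines. Amino acid transporters reach 65% and epithelial junction genes 68.2% higher, against 19.4%.

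Of 23 amino acid transporters, 20 were compared, 13 were higher (65%) and 2 lower, with a median log2 ratio of 0.84. With siTMPO-AS1 #1 the median was 0.16. Both chains of the leucine carrier were higher, SLC7A5 as above and its heavy chain SLC3A2 with 13.31 with siControl, 13.89 with siTMPO-AS1 #1 and 14.39 with siTMPO-AS1 #2. The cationic amino acid carrier SLC7A2 had 6.93 with siControl, 6.05 with siTMPO-AS1 #1 and 8.78 with siTMPO-AS1 #2, the highest of the 3 arrays with siTMPO-AS1 #2. Further higher members, named after their values were seen, were SLC38A4 (1.72), SLC36A4 (1.41), SLC43A1 (1.004), the glutamate carriers SLC1A1 (0.89) and SLC1A3 (0.68), SLC38A9, an arginine sensor of the lysosome (0.87), SLC1A4 (0.82) and SLC7A1 (0.64). The cystine carrier SLC7A11 was above the control with siTMPO-AS1 #2 and below it with siTMPO-AS1 #1 (12.21, 10.47 and 13.12). The taurine carrier SLC6A6 (-1.27) and the glutamine carrier SLC38A2 (-0.63) were lower.

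Carriers of this kind are induced by ATF4 when amino acids are short, which makes the other ATF4 targets a natural comparison. In the list of ATF4 and the integrated stress response, 5 of 21 compared members were higher and 3 lower. CHAC1, which degrades glutathione (1.16), ASNS, asparagine synthetase (1.08), MTHFD2 of mitochondrial folate metabolism (1.06) and PSAT1 of serine synthesis (0.62) were higher. DDIT3, the stress factor CHOP (-1.07), and DDIT4, an inhibitor of mTOR (-1.11), were lower. The list's median of 0.06 ranged from -0.02 to 0.15 over the processing alternatives. Of 17 aminoacyl-tRNA synthetases, which load tRNAs, 3 were higher, among them VARS1 (0.92) and SARS1 (0.87), and 1 lower, LARS1 (-0.68). In the unfolded protein response list, 1 of 25 was higher and 5 lower, among them XBP1, a transcription factor of that response (10.16, 9.17 and 8.46), and EDEM1, of the disposal of misfolded proteins (-0.79); the chaperone HSPA5 was within 1.5-fold (-0.07).

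The composite element that ATF4 binds with a C/EBP partner was searched in the promoter windows as TGATGNAA on both strands, where N is any base. It was in 3.67% of 27305 windows of the RefSeq table, and in 4 of the 17 windows found for the compared transporters. Higher members had 11 of those 17 windows, and 3 of the 4 with the element. The surrounding 60 bases are shown for these 4, with the match in capitals (read on the other strand for SLC3A2) and each on its gene's strand. The windows lie at chr5:36596342-36596401 (plus strand) for SLC1A3, chr12:46266487-46266546 (minus strand) for SLC38A1, chr11:62881689-62881748 (plus strand) for SLC3A2 and chr13:29595648-29595707 (minus strand) for SLC7A1, in GRCh38.p14.
SLC1A3: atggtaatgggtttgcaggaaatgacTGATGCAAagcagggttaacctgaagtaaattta
SLC38A1: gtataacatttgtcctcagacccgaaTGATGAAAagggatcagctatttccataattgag
SLC3A2: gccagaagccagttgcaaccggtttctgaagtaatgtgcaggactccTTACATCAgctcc
SLC7A1: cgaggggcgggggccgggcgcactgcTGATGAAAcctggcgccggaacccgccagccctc
A match of letters is a description of the window and not a shown site. Among other letters searched, those of AP-1 (TGANTCA) were in 7.76% of all windows and in 3 of the 17 transporter windows, 1 of them of a higher member.

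Of 34 epithelial junction and adhesion genes, 30 had a value and 22 passed the filter and were compared. Of the 22, 15 were higher (68.2%) and 3 lower, with a median log2 ratio of 0.79 against -0.04 with siTMPO-AS1 #1. Without the filter, 16 of the 30 were higher. EPCAM, a homophilic adhesion molecule of epithelia, had 10.92 with siControl, 11.26 with siTMPO-AS1 #1 and 13.22 with siTMPO-AS1 #2. DSP, desmoplakin, which ties desmosomes to intermediate filaments, had 10.74 with siControl, 9.23 with siTMPO-AS1 #1 and 12.80 with siTMPO-AS1 #2. Together with CLDN1 these stood at least 4-fold above siControl, and in all 3 the siTMPO-AS1 #2 array was the highest. Further members of the list were named after their values were seen. In tight junctions, OCLN, occludin, had 12.23, 11.11 and 14.12, CLDN12 11.10, 8.97 and 12.71, MARVELD2, tricellulin, 7.95, 7.74 and 9.27, and CLDN4 10.17, 10.51 and 10.93; for OCLN, CLDN12 and MARVELD2 siTMPO-AS1 #1 was below the control, and for CLDN4 above it. In desmosomes, DSG2 (1.39), PKP2 (0.84), DSC2 (0.82) and JUP (0.74) were higher. The surface protease inhibitors SPINT1 (1.90) and SPINT2 (0.89), the polarity gene CRB3 (0.74) and TJP3 (0.66) were higher too.

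The lower members were TJP1, CTNND1 and MARVELD3. TJP1, the scaffold ZO-1, had 14.22 with siControl, 14.91 with siTMPO-AS1 #1 and 12.24 with siTMPO-AS1 #2, and CTNND1, p120-catenin, which holds cadherins at the membrane, had 14.27 with siControl, 14.63 with siTMPO-AS1 #1 and 12.97 with siTMPO-AS1 #2. Both were above the control with siTMPO-AS1 #1 and below it with siTMPO-AS1 #2. A dimmer second probe set of TJP1, also past the filter, had 5.67, 3.98 and 5.52, a log2 ratio of -0.15, and was lowest with siTMPO-AS1 #1. MARVELD3, a membrane protein of tight junctions, was lower (-0.86), and CTNNA1 was within 1.5-fold (0.55). CDH1, E-cadherin, did not pass the filter and had 3.64 with siControl, 3.08 with siTMPO-AS1 #1 and 3.37 with siTMPO-AS1 #2. ESRP1, an epithelial splicing regulator also under the filter, had 3.76, 3.01 and 5.10.

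ZEB1 and the SNAI factors repress epithelial genes at E-boxes of the letters CAGGTG, which were searched on both strands (CACCTG on the other). They were in 20.6% of all promoter windows, and in 6 of the 15 windows found for the compared epithelial genes. Higher genes had 12 of those 15 windows, and 5 of the 6 with the letters (CRB3, DSC2, DSG2, DSP and OCLN), a like share. The other was that of TJP1. Shown are 60 bases around a match for the 2 of these with the largest positive ratios and for TJP1, with the match in capitals, at chr6:7541560-7541619 (plus strand) for DSP, chr5:69492488-69492547 (plus strand) for OCLN and chr15:29969104-29969163 (minus strand) for TJP1 in GRCh38.p14.
DSP: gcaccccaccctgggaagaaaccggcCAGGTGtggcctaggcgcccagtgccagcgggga
OCLN: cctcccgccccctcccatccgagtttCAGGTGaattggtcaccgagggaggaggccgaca
TJP1: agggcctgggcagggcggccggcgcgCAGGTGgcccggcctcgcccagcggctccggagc
Here too a match of letters is not a shown site, and a part of these letters in the ratios was not tested.

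Of 17 EMT factors and mesenchymal markers, 1 was higher and 6 were lower, with a median log2 ratio of -0.11. ZEB1, a transcriptional repressor of epithelial genes, had 15.23 with siControl, 15.26 with siTMPO-AS1 #1 and 13.65 with siTMPO-AS1 #2. CAV1, caveolin-1, had 15.47 with siControl, 15.99 with siTMPO-AS1 #1 and 14.08 with siTMPO-AS1 #2. For both, siTMPO-AS1 #1 was at or above the control and only siTMPO-AS1 #2 was lower. The integrin chain ITGA5 (-2.79) was the lowest member, and CDH11 (-1.38, named after its values were seen), MMP14 (-1.37) and TGFBI (-0.76) were lower with both siRNAs. FN1, fibronectin, was the higher member (12.01, 11.94 and 13.09). Vimentin (VIM, -0.07) and LGALS1 (0.46) were within 1.5-fold. Among keratins, the simple epithelial pair KRT8 (14.82, 15.02 and 15.80) and KRT18 (13.003, 12.30 and 13.90) was higher, KRT80 was lower (7.03, 6.39 and 5.51), and KRT19 was within 1.5-fold (0.08).

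**Figure D5:**
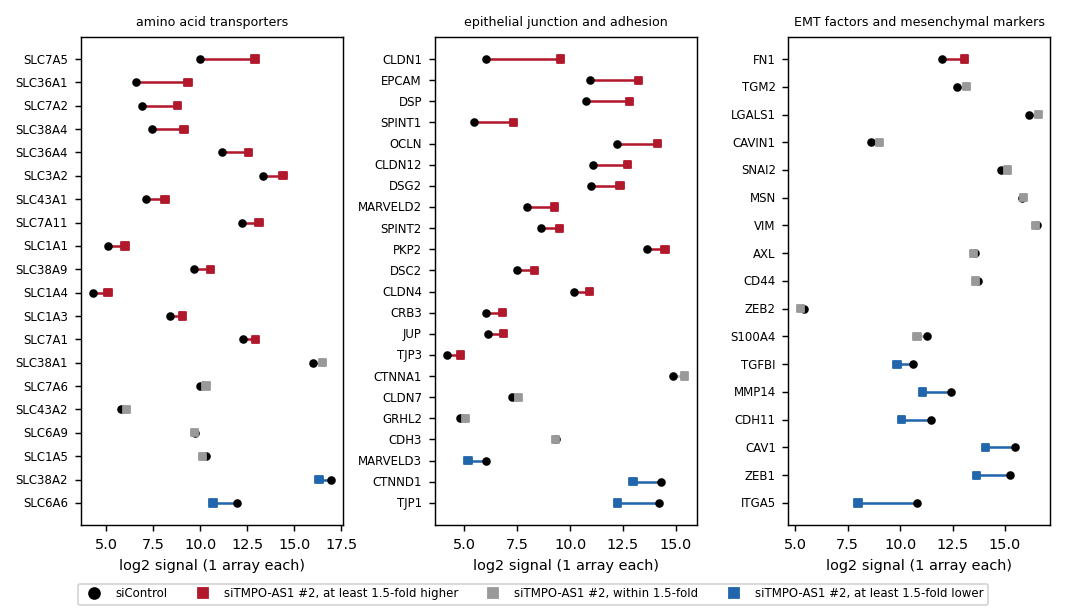
Log2 signals of the compared members of 3 lists, with siControl as circles and siTMPO-AS1 #2 as squares (1 array each), joined by a line; red is higher and blue lower by at least 1.5-fold, grey within it. Red dominates among amino acid transporters (13 of 20) and epithelial genes (15 of 22), and blue outnumbers red among mesenchymal genes (6 against 1).

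The line's identity was read from its markers. The 10 markers of a mesenchymal triple-negative line all passed the filter, with siControl log2 signals of 10.61 to 16.52, and ESR1, PGR and CDH1 did not pass it. The summed signal of 9 luminal and hormone receptor markers, of which 4 passed the filter, was 12.28 (log2) with siControl and 12.38 with siTMPO-AS1 #2, nearly all of it KRT19, while the dimmer ERBB3 (1.47) was higher and TFF1 (-0.62) lower. Other cell types were near the floor: 3 of 8 fibroblast, 2 of 6 immune and 1 of 5 endothelial markers passed the filter, and PTPRC, the leukocyte marker CD45, had 4.54 with siControl and 4.64 with siTMPO-AS1 #2. The fibroblast sum was 8.54 with siControl, 8.82 with siTMPO-AS1 #1 and 9.47 with siTMPO-AS1 #2, carried by COL1A1, which had 7.88, 8.07 and 9.10, while PDGFRA, THY1, FAP and POSTN were under the filter on all 3 arrays. The immune sum was 11.21, 12.34 and 10.89, nearly all of it CD68, and the endothelial sum was 6.11, 6.20 and 6.11. Their part in the matrix and adhesion values that follow was not tested.

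Matrix and adhesion genes moved in both directions. Of 21 collagens, laminins and other matrix genes, 7 were higher, among them COL12A1 (9.74, 9.56 and 11.41) and THBS1, thrombospondin-1 (15.49, 13.79 and 16.28), and 3 were lower, COL6A3 (6.16, 3.17 and 4.37), TNC (7.58, 8.46 and 6.31) and TGFBI. Among genes that modify and cross-link collagen, 4 of 15 were higher and 1 lower. LOX, lysyl oxidase, had 12.10 with siControl, 7.67 with siTMPO-AS1 #1 and 13.45 with siTMPO-AS1 #2, and P3H2 had 14.32 with siControl, 10.41 with siTMPO-AS1 #1 and 15.99 with siTMPO-AS1 #2. Both were above the control with siTMPO-AS1 #2 and far below it with siTMPO-AS1 #1. PLOD2 (1.11) and P4HA1 (0.93), hydroxylases of lysine and proline, were higher, and P4HA2 was lower (-1.90). In proteoglycan sugar synthesis the enzymes around UDP-glucuronate diverged: UGDH, which makes it, was the lowest member (-4.58), while HAS2, which uses it (2.75), and UXS1, which turns it into UDP-xylose (1.04), were higher.

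Of 10 integrins, ITGB4 was higher (7.91, 7.01 and 9.06) and ITGA5 and ITGA2 (-0.59) were lower; ITGB1, the shared beta chain, had 0.02. In the metalloproteinase and plasminogen list, 3 of 18 compared members were higher and 2 lower. PLAU, urokinase, was higher (14.07, 11.83 and 15.08) and lower than the control with siTMPO-AS1 #1. Of 20 YAP and TEAD factors and targets, 7 were higher (35%) and 3 lower. The secreted targets CCN1 (12.69, 11.98 and 14.26) and CCN2 (10.17, 7.30 and 11.74), the ankyrin repeat gene ANKRD1 (14.49, 15.11 and 15.95), tissue factor, F3 (15.03, 12.17 and 16.31), and the inhibitory kinase LATS2 (5.93, 7.09 and 7.56) were higher. In CCN1, CCN2 and F3 the siTMPO-AS1 #1 array lay below the control. STK4, the upstream kinase MST1, was lower (-0.89), as were PTPN14 (-1.04) and CRIM1 (-0.90). The list's median of 0.30 fell between -0.07 and 0.35 over the alternatives.

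Among genes of actin filament turnover, 8 of 31 compared members were higher and 2 lower. The lower members were LIMK1 and CAPZA1. ARPC3, a subunit of the actin-nucleating Arp complex, was the highest (13.73, 15.27 and 15.55), and its second probe set had a log2 ratio of 2.08. The monomer-binding PFN1, profilin (0.59), the formin DIAPH1 (0.67) and WASL (0.70) were higher. In the actomyosin and focal adhesion list, 5 were higher and 5 lower. The calponins CNN3 (17.23, 17.64 and 14.83) and CNN2 (12.20, 12.02 and 10.35) were low with siTMPO-AS1 #2 alone, and vinculin, VCL, was lower (-1.20), while the myosin light chain genes MYL12A (0.74) and MYL12B (0.62) and the tropomyosin gene TPM1 (0.75) were higher.

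Secreted signals of inflammation did not move as a block. Of 18 interleukins and growth cytokines, 7 were higher (38.9%) and 4 lower. Next to IL1B, IL18 had 9.33 with siControl, 7.63 with siTMPO-AS1 #1 and 11.67 with siTMPO-AS1 #2, and IL6 had 9.70 with siControl, 9.43 with siTMPO-AS1 #1 and 11.12 with siTMPO-AS1 #2. In each, siTMPO-AS1 #2 was the highest array and siTMPO-AS1 #1 the lowest. LIF (-0.71), EREG, epiregulin (-0.73), and VEGFC (-0.73) were lower. Of 6 chemokines compared, 1 was lower, CCL2 (60.7-fold), and 1 was called higher, CXCL16 (4.12, 3.85 and 5.52). CXCL16 was under the filter on the other arrays and passed it only through the siTMPO-AS1 #2 array where it was high. Its call therefore gives no upward direction for the list. CXCL8, the neutrophil chemokine interleukin-8, had 10.13 with siControl, 4.999 with siTMPO-AS1 #1 and 10.01 with siTMPO-AS1 #2, level with the control here and far below it with siTMPO-AS1 #1.

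In the NF-kB list, 2 of 19 compared members were higher and 5 lower. ICAM1, a leukocyte adhesion molecule, was higher (1.28), and TNFAIP2 (-1.60), the subunit genes NFKB1 (-0.91) and REL (-0.78) were lower; the inhibitor NFKBIA was within 1.5-fold (0.09). Of 36 interferon response genes, 8 were higher, among them SAMD9 (1.10), IFITM1 (1.04) and OASL (1.04), and 5 lower, among them XAF1, the transcription factor IRF1 (-1.55) and SAMD9L (-1.04). These shares, 22.2% and 13.9%, are close to those of all protein-coding genes. In the list of double-stranded RNA sensing, 2 of 10 compared members were higher, DHX58 (0.64) and ADAR (0.59), and 0 lower. That share of 20% is close to the 19.4% of protein-coding genes. With quantile normalization repeated, DHX58 (0.57) and ADAR (0.52) fell under 1.5-fold. In MHC class I presentation, 0 of 16 were higher and 3 lower: TAPBP, tapasin (11.49, 11.36 and 10.01), HLA-C (9.75, 8.98 and 8.51) and the immunoproteasome subunit PSMB9 (10.84, 10.63 and 9.66). Among ligands of NK cell receptors, 5 of 13 were higher, led by CLEC2B, and 2 lower, NECTIN2 (-0.63) and CLEC2D (-0.70).

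Genes of mitosis and DNA replication were lower more often than higher. Of 45 mitosis genes, 0 were at least 1.5-fold higher and 8 lower, and 36 had a ratio below 0 (median -0.26). MAD2L1, of the spindle checkpoint, had 10.86 with siControl, 7.70 with siTMPO-AS1 #1 and 9.31 with siTMPO-AS1 #2, KIFC1, a minus-end kinesin, had 11.11 with siControl, 10.42 with siTMPO-AS1 #1 and 9.67 with siTMPO-AS1 #2, and KIF4A, a chromokinesin, had 11.77 with siControl, 11.85 with siTMPO-AS1 #1 and 10.65 with siTMPO-AS1 #2. MAD2L1 was lower with both siRNAs, KIF4A with siTMPO-AS1 #2 alone. Of 23 replication origin and MCM genes, 1 was higher, ORC4 (0.76), and 7 were lower, among them MCM6 (8.39, 6.94 and 6.94), MCM10 (7.13, 5.47 and 5.78) and GINS3 (7.30, 5.97 and 6.21). In these 3 the siRNA arrays were close to each other. Of 29 fork and nucleotide genes, 6 were lower, with CLSPN, claspin (-1.63), TIMELESS (-1.22) and the chromatin assembly subunit CHAF1A (-1.06), and POLD2 was higher (0.98). For siTMPO-AS1 #2 the median was -0.07 in the origin list and -0.23 in the fork list, and for siTMPO-AS1 #1 it was -0.90 and -0.96.

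Replication-dependent histone genes, which are read in S phase, were lower in 11 of 43 cases and higher in 2, with 35 ratios below 0 and a median of -0.39. H2AC21 (9.77, 8.36 and 8.40), H3C7 (6.74, 5.39 and 5.63) and H4C2 (7.20, 6.24 and 6.20) were the lowest. Near-identical histone genes can share probes, so single members are uncertain. Among G1 and S cyclins and kinases, SKP2, which marks the CDK inhibitor p27 for destruction (13.67, 11.41 and 11.73), and CDK2 (12.10, 11.79 and 10.99) were lower, and CDK6 (10.46, 8.49 and 11.81) and CCND2 (0.87) higher. CDK6 was above the control with siTMPO-AS1 #2 and below it with siTMPO-AS1 #1. Of 12 E2F factors and pocket proteins, 4 were lower, among them E2F3 (-1.04), RBL1 (-1.05) and RBL2 (-0.98), and E2F5 was higher (0.62). The CDK inhibitor CDKN1A, p21, was higher (9.36, 8.85 and 10.08). The anaphase-promoting complex leaned upward, with a median of 0.48 and 11 of 15 subunits and activators above 0. Of the 15, 4 were higher and 3 lower, CDC27 (-1.44), ANAPC16 (-1.13) and the activator FZR1 (-0.94). Among recombination and Fanconi genes, 2 of 18 were higher and 3 lower, with XRCC2 the lowest (-1.23).

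Signalling lists differed in their balance. NOTCH had 0 higher and 4 lower of 12: besides RBPJ, the ligand JAG1 (10.72, 9.46 and 8.87) and the target HES1 (8.74, 5.99 and 7.001) were lower with both siRNAs. In WNT signalling, 4 of 17 compared members were higher and 6 lower. The secreted inhibitor DKK1 had 13.89 with siControl, 15.23 with siTMPO-AS1 #1 and 16.21 with siTMPO-AS1 #2 (5.02-fold above siControl), and LEF1 (1.34) and GSK3B (1.03) were higher, while the receptors FZD6 (-1.32), FZD4 (-1.01) and FZD1 (-0.98) were lower. Among TGF-beta ligands, receptors and SMADs, 3 of 17 compared members were higher and 3 lower. The receptors TGFBR1 (13.46, 8.65 and 11.66) and TGFBR2 (15.06, 13.27 and 14.18) and the signal carrier SMAD3 (12.89, 12.50 and 11.20) were lower, and on the side of antagonists FST and SKI (0.87) were higher, as was the activin subunit gene INHBA (0.87). In the BMP branch SMAD1 was lower (-0.81), and the antagonist NOG, noggin (0.78), and the target ID1 (0.62) were higher.

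Of 14 genes of the RAS, RAF, MEK and ERK chain, 4 were higher, with the adaptor SHC1 (1.06) and the kinases ARAF (0.99) and MAP2K1 (0.69), and 0 lower (median 0.46). Among ERK feedback and output genes, 5 of 20 compared members were higher and 2 lower. EGR1, an immediate early factor (6.44, 7.49 and 7.998), and the feedback genes SPRY4 (10.32, 8.59 and 11.55) and DUSP5 (0.81) were higher, SPRED1 (-1.13) and DUSP7 (-0.93) lower. Of 17 growth factor receptor kinases, ERBB3 was higher (5.22, 6.16 and 6.69), and ROR1 (-1.30), IGF1R (-0.59) and PDGFRB (-0.63) were lower. In the PI3K, AKT and mTOR list, 4 of 22 were higher and 4 lower. MTOR itself had 9.33 with siControl, 8.81 with siTMPO-AS1 #1 and 7.01 with siTMPO-AS1 #2, the lowest member, and INPP4B, a phosphatase that opposes AKT, had 6.45 with siControl, 6.37 with siTMPO-AS1 #1 and 8.50 with siTMPO-AS1 #2, the highest. PIK3R3 (1.43) and FOXO3 (0.76) were higher, PIK3R1 (-0.999) and RPS6KB1 (-0.80) lower.

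Transcription factors of the AP-1 and CREB family were higher in 3 and lower in 4 of 14. The acetyltransferase CREBBP (14.03, 12.35 and 11.61) and CREB5 (10.89, 7.85 and 8.86) were lower with both siRNAs, and BATF3 was higher (1.41). In the MYC network, with 1 higher and 2 lower, MAX, the partner of MYC, was lower (12.65, 11.86 and 11.09), and MXI1, which competes for MAX, was higher (10.66, 11.80 and 11.83). Of 14 genes of the insulin-like growth factor axis, IGFBP4 (1.28) and IGF2BP2 (0.67) were higher, and IGFBP1 (-1.08), the protease PAPPA (-0.82) and IGF1R lower.

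Cell death genes were mixed. Among caspases, apoptosome proteins and their inhibitors, 4 of 17 compared members were higher and 3 lower. CASP4, an inflammatory caspase, had 11.14 with siControl, 11.27 with siTMPO-AS1 #1 and 13.36 with siTMPO-AS1 #2, high with siTMPO-AS1 #2 alone, and HTRA2, a mitochondrial protease that antagonises apoptosis inhibitors, had 10.67 with siControl, 11.33 with siTMPO-AS1 #1 and 8.60 with siTMPO-AS1 #2, low with siTMPO-AS1 #2 alone. CASP2 (0.97) and the inhibitor BIRC2 (0.91) were higher. In the BCL2 family the pro-death members PMAIP1, NOXA (1.17), and BAK1 (0.99) were higher, BAX (-1.02) and the survival gene BCL2L2 (-0.91) lower. In the death receptor list, with 2 higher and 2 lower, the ligand TNFSF10, TRAIL (14.90, 13.41 and 12.87), and its receptor TNFRSF10B (9.63, 8.34 and 8.07) were lower with both siRNAs, and the decoy receptor TNFRSF11B (0.96) was higher. Of 26 p53 pathway genes, 8 were higher (30.8%) and 4 lower (15.4%). ZMAT3 (1.75) and SESN1 (1.03) were among the higher, and CCNG1 (-2.30) and MDM2, the ligase that degrades p53 (-1.29), among the lower.

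Mitochondrial lists had medians above the 0.13 of protein-coding genes, with mostly small ratios. The 4202 brightest genes had a median of 0.15 and the reference genes 0.25. Shares higher were near the 19.4% of protein-coding genes for complex I (18.8%), ATP synthase (20%), protein import (18.5%) and mitochondrial ribosomal proteins (20.3%). They were 33.3% for complexes II and III and 31.2% for cytochrome c oxidase. Of 32 complex I genes, 27 had a ratio above 0 and the median was 0.39, with 6 higher, among them NDUFV1 (0.75), and 1 lower, NDUFB5 (13.97, 14.67 and 12.57). Complexes II and III had a median of 0.44 (4 of 12 higher, 0 lower), with UQCRB at 0.81. Cytochrome c oxidase had 0.42 (5 of 16 higher, 1 lower), with COX7B at 0.86 and COX11 at -0.71, and ATP synthase 0.35 (3 of 15 higher, 0 lower), with ATP5F1A at 0.76. The medians of these 4 lists with siTMPO-AS1 #1 were 0.36, 0.26, 0.34 and 0.26. Among protein import genes, SAMM50, of outer membrane assembly, was the highest (9.55, 11.69 and 11.55), and TIMM23, of the inner membrane channel (15.22, 14.46 and 12.92), and TOMM34 (14.75, 13.39 and 12.71) were the lowest. Of 74 mitochondrial ribosomal proteins, 15 were higher (20.3%) and 4 lower, MRPS10 most (13.72, 14.70 and 11.43). Cytosolic ribosomal proteins shifted little: of 29 large subunit genes 0 were higher and 0 lower, though 25 had a ratio above 0, and RPS19 was the highest of the small subunit (14.45, 16.23 and 16.05).

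Among NRF2 and glutathione genes, 10 of 27 were higher (37%) and 1 lower. The aldo-keto reductase AKR1C3 (9.36, 10.30 and 10.96) was higher with both siRNAs, and thioredoxin reductase, TXNRD1 (14.93, 15.45 and 16.09), was past 1.5-fold with siTMPO-AS1 #2 alone. GCLM, a subunit of the enzyme that starts glutathione synthesis, was lower (10.68, 9.35 and 9.45). PRDX1 (14.38, 15.08 and 15.32), a cytosolic peroxiredoxin, was higher, and PRDX3 (14.85, 12.77 and 12.90), the mitochondrial form, lower. Of 9 iron genes, 0 were higher and 2 lower, the zinc and iron carrier SLC39A14 (10.34, 7.94 and 8.53) and ACO1, the iron regulatory aconitase (12.40, 13.13 and 10.67). In the hypoxia list, 7 of 23 compared members were higher and 5 lower: ADM, adrenomedullin, was higher (1.26) and the carbonic anhydrase gene CA12 lower (-1.54). Of 18 glycolysis genes, 3 were higher, among them the glucose carrier SLC2A3 (12.04, 8.94 and 13.08) and PFKM (0.74), and 1 lower, PGK1 (-0.91). In cholesterol synthesis and uptake, 3 of 20 compared members were higher and 3 lower, with SQLE, squalene epoxidase, the lowest (-1.26) and EBP the highest (0.82). In fatty acid synthesis, ELOVL7, a chain elongase (6.84, 4.80 and 8.55), and ACSL4 (11.72, 10.30 and 12.73) were higher and FASN lower (-0.61).

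Protein turnover lists had medians of 0.35 (proteasome), 0.36 (autophagy and lysosome) and 0.13 (cytosolic chaperones), against 0.13 for protein-coding genes. Their shares higher were 21.9%, 27.3% and 14.3%, against 19.4% of protein-coding genes. Of 32 proteasome subunits, 7 were higher and 2 lower (median 0.35). PSMD3 was the highest (10.91, 12.38 and 12.59) and PSMA1 the lowest (11.12, 8.45 and 9.53). Of 33 autophagy and lysosome genes, 9 were higher (27.3%) and 2 lower, with GABARAPL2 (1.24), GABARAPL1 (1.19) and ATG5 (0.94), which act in forming the autophagosome, among the higher and NBR1, a cargo receptor (-0.85), among the lower. ATG16L1 was lower (-0.85) by its brightest probe set, and the mean of its 19 probe sets gave 0.03. Among 21 cytosolic chaperones, 3 were higher, CCT5 (0.76), HSPB1 (0.68) and CCT2 (0.62), and 0 lower. Of 19 reference genes, 1 was higher and 1 lower, and GAPDH (-0.01) and YWHAZ (0.02) were level with the control. Yet 12 of the 19 had a ratio above 0, and their median was 0.25, against 0.13 for protein-coding genes.

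Both siRNA comparisons use the same control array, so they are set side by side without a measure of their likeness. In the lists with the highest medians, siTMPO-AS1 #2 had 13 amino acid transporters higher against 4 with siTMPO-AS1 #1, and 15 epithelial genes higher against 4. Set directly against siTMPO-AS1 #1, without the control, siTMPO-AS1 #2 was at least 1.5-fold higher in 10 of 20 transporters and lower in 1. It was higher in 11 of 22 epithelial genes and lower in 2. In the same contrast siTMPO-AS1 #2 was higher in 14 of 23 origin genes, 17 of 29 fork genes and 13 of 20 YAP and TEAD genes, with 1 lower in each. No share over all genes is given for this contrast, so none of these counts can be read as particular to its list. Over all genes, siTMPO-AS1 #1 had 3158 genes lower than siControl at 1.5-fold, against 1754 with siTMPO-AS1 #2. The cell cycle lists differed among themselves. For mitosis the median of siTMPO-AS1 #2 (-0.26, 8 genes lower) was below that of siTMPO-AS1 #1 (-0.11, 11 lower), as for CDK inhibitors (-0.08 against 0.24). With siTMPO-AS1 #1, origin genes were lower than siControl in 15 cases against 7 with siTMPO-AS1 #2, and histones in 28 against 11. These differences between siRNAs rest on 1 array each and were not tested.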

How the data were processed

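RNA of MDA-MB-231 cells, 48 h after transfection, was measured on 3 Affymetrix arrays (1 per siRNA) from 150 ng of total RNA each, per the labels' protocols. Each deposited value is the log2 signal of a probe set, and per the submitters' processing notes the authors used RMA and Affymetrix Expression Console, whose versions, like the annotation build, were not given in the sources used here. RMA quantile-normalizes arrays, which gives them like distributions (medians 3.73, 3.75 and 3.75), so a shift shared by most genes cannot be seen. Values above 16 exceed the log2 range of a 16-bit scan, so folds are those of the deposited scale. There is no read depth, so precision is limited by the number of arrays. Of 138745 probe sets, 36176 had exactly 1 gene symbol in the platform annotation, 1119 several and 101450 none. Of the 36176, 25516 matched the RefSeq table (GRCh38.p14), which gave gene types and promoter windows. Values were subtracted with no further normalization (Python 3.11.15, pandas 2.3.3), and the counting was tested on simulated data. Named genes were TMPO-AS1, TMPO, the 20 highest and 20 lowest, and from each list up to 3 at each end past 1.5-fold (otherwise 1 at each end) and the 3 brightest; symbols of the LOC, LINC and MIR kind, pseudogenes and genes absent from the RefSeq table were passed over, 2 of them within the lowest 20. Members, lists and rules were chosen with earlier results of these data known.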

Additional observations from a re-analysis of the deposited data

Results flagged for a closer look

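Probe sets that the platform annotation pairs with no gene symbol lie outside the comparisons of genes, and they too differed between siTMPO-AS1 #2 and siControl. Of 27340 such probe sets at or above the filter, 33 stood at least 4-fold above siControl and 31 at least 4-fold below it. At 1.5-fold, 11.2% were higher and 11.2% lower, with a median log2 ratio of 0.0039. Among genes with a symbol the higher outnumbered the lower on the deposited scale (2705 against 1754), and nearly equalled them with quantile normalization repeated (2149 against 2116). With 1 array per condition there are no control replicates for these counts, and their transcripts are unnamed here.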

How the results depend on the processing

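No paired analysis was possible because each group had 1 array, so no replicate could be left out either. With 8 alternatives (7 planned, and protein-coding genes alone added after seeing the data), a stricter filter at the 75th percentile, which left 8404 genes, moved counts by construction: 1448 genes higher and 940 lower at 1.5-fold, 418 and 417 at 2-fold, 37 higher at 4-fold, and 9 epithelial genes higher. Under the other alternatives each of these counts stayed within 1.5 times, but the balance of higher and lower genes moved with normalization. With quantile normalization repeated, 2149 were higher and 2116 lower at 1.5-fold, and 604 higher and 764 lower at 2-fold. With each array centred on its median, 2314 were higher and 2035 lower at 1.5-fold, and 655 higher and 723 lower at 2-fold. Of the named genes past 1.5-fold, ATG16L1 changed sign, to 0.0349, with the mean of its probe sets, and the cause was not tested. With that mean 7 of 351 fell under 1.5-fold and 12 moved by over 1.5 times. With quantile normalization repeated 21 of 352 fell under 1.5-fold, and with each array centred on its median 15 did, with log2 ratios of 0.68 or less on the main scale; PFN1, ADAR, ID1, MYL12B, E2F5, CCT2 and PSAT1 were among both. The median of all genes ran from 0.01 (quantile normalization repeated) to 0.13 (protein-coding genes). Amino acid transporters kept medians of 0.68 to 0.88 and epithelial genes 0.70 to 0.89. Medians near 0 changed sign in some alternatives, as for chemokines (-3.02 to 0.14), keratins (-0.15 to 0.51), matrix genes (-0.05 to 0.49), the NF-kB list (-0.11 to 0.04), p53 (-0.16 to 0.03) and interferon genes (-0.02 to 0.16). Signals near the filter and above 16 limit single genes: 406 genes exceeded 16.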

Other observations

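RNA-processing genes varied in single members more than as groups with siTMPO-AS1 #2. Of 48 splicing genes, 4 were at least 1.5-fold higher, with SNRPB at a log2 ratio of 0.97, and 3 lower, with SF3B2 at -0.73 next to PPIL1. Of 32 decapping and decay genes, 5 were higher and 3 lower. DCP2, the decapping enzyme, had 11.65 with siControl, 8.69 with siTMPO-AS1 #1 and 9.20 with siTMPO-AS1 #2, low with both siRNAs, and the deadenylase CNOT6 had 10.30 with siControl, 10.88 with siTMPO-AS1 #1 and 8.74 with siTMPO-AS1 #2, low with siTMPO-AS1 #2 alone. In the machinery that siRNAs use, AGO3 (0.89) and AGO1 (0.79) were higher, and AGO2, the Argonaute that cuts RNA (10.47, 10.84 and 9.82), AGO4 (-0.97) and TNRC6B (-0.79) lower. Of 14 cancer-associated long non-coding RNAs, UCA1 and NORAD (13.93, 11.86 and 14.71) were higher, and TUG1 (13.03, 12.34 and 11.66) and OIP5-AS1 (-0.60) lower; both compared snoRNA hosts were within 1.5-fold, ZFAS1 (0.15) and EPB41L4A-AS1 (0.31).

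Genes of the nuclear envelope, of DNA methylation and of membranes were read in the same way. LBR, the lamin B receptor, was lower (13.82, 11.81 and 13.01), as was TMEM43 (-0.68), and LMNB1, lamin B1 (11.09, 11.34 and 11.94), and SUN1 (0.70) were higher, these being 2 and 2 of 14 lamina genes. Of 39 nuclear pore genes, 3 were higher and 1 lower, KPNA6 (-0.61). UHRF1, which brings DNA methyltransferase to replicated DNA, had 8.31 with siControl, 6.70 with siTMPO-AS1 #1 and 10.41 with siTMPO-AS1 #2, high with siTMPO-AS1 #2 and low with siTMPO-AS1 #1, and the de novo methyltransferase DNMT3A was higher (1.05), while TET1 (-1.42) and TDG (-0.86), which act in removing methylation, were lower. The sphingosine 1-phosphate receptor gene S1PR1 (5.92, 8.11 and 7.91) and the ceramide synthase CERS6 (0.79) were higher. Among 18 tetraspanins, TSPAN13 (7.85, 9.27 and 9.94) and TSPAN6 (12.64, 13.76 and 14.13) were among 3 higher and CD82 (10.59, 8.30 and 8.08) and TSPAN14 (-1.27) among 4 lower. Of 19 intraflagellar transport genes, 4 were higher and 1 lower, IFT52 (-1.03). Of 12 tubulins and cofactors, TBCB (0.98) and TBCA (0.84) were higher and 0 lower, and of 8 Eph receptors and ephrins, EPHA2 alone was higher and 0 lower. Of 13 luminal breast genes, 4 were higher, among them MUC1 (1.18), and 6 lower, among them PRLR (-1.56).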
